A study of Mus musculus with 22 samples.

Results

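The skeletal muscle program of the forelimb was taken here as 41 genes of known function, namely myogenic regulators and contractile, neuromuscular and calcium-handling genes. They were found on the arrays by gene name or RefSeq accession, which gave 74 non-control probes, and 40 of the 41 were among the 18627 genes and unnamed probes tested. The members were split into 4 progenitor and commitment factors (Pax3, Pax7, Myf5 and Myod1) and 37 differentiation genes. Forelimbs of mouse embryos of strain 129 at embryonic day 13.5 were compared between 9 wild-type samples and 13 samples with a knockout of Chsy-1, whose gene Chsy1 encodes an enzyme that builds chondroitin sulfate chains. Forelimb RNA carried the dye Cy5 and was read against 1 common reference RNA (universal mouse reference, in Cy3), so each value below is a log2 ratio of sample over reference, and a difference is the mean of the knockout arrays minus the mean of the wild-type arrays. The labels do not describe the allele, or say whether a sample is 1 embryo or a pool or which samples were littermates. The p-values of the differences set each difference against the spread between these samples. They treat the samples as independent, which the labels do not allow to be checked.

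Limb muscle is built by cells that migrate from the somites. Pax3 and Pax7 mark these progenitors, and Myf5 and Myod1, basic helix-loop-helix factors that bind E-boxes, commit them to the muscle fate. Myog (myogenin), Myf6 and Mef2c then turn on the genes of the differentiated fibre, which encode the sarcomere, the acetylcholine receptor and the calcium release apparatus. At this stage of development the forelimb holds dividing progenitors beside newly fused fibres, together with cartilage, tendon, vessels, nerve and skin.

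Arrays are named by group and replicate number. Each array had 27214 to 30599 of its 43379 non-control spots well above background, and no such spot was saturated. The log2 ratio of Chsy1 itself averaged 1.73 over wild type (SD 0.28, n = 9) and -4.38 over knockout (SD 1.39, n = 13), a difference of -6.11. The array labelled knockout 1 lay between the groups, with 0.15 for Chsy1. The other knockout arrays ran from -5.12 to -4.05 and the wild-type arrays from 1.28 to 2.02. Apart from this, 2 arrays stood apart from the others over all genes: the slope of an array's ratios on the mean of the other arrays was 0.686 for wild type 1 and 0.871 for knockout 12, against 0.961 to 1.06 elsewhere. Several results below are also given without wild type 1 or without both of these arrays. The arrays filled 6 slides, each with both groups. Position 1 of a slide held only wild-type arrays, positions 3 and 4 only knockout arrays, and position 2 held 3 of each. The wild-type arrays of position 2 lay on slides 1 to 3 and its knockout arrays on slides 4 to 6.

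The stretch of 250 bases before the start of transcription, from RefSeq promoters of GRCm38.p6, was available for 33 of the 41 members (38 promoters, of which the pairs of Myh7 and of Tnni1 overlap). Pax3, Myod1, Myf6, Tnnt3, Tnni2, Neb, Tcap and Chrnd had no entry. The promoters of the members with an entry were searched for 4 motifs on both strands. A link of these motifs with the variation across arrays was not tested. The E-box CAGCTG, the form that the myogenic factors are known to prefer, was present in 16 of 38 member promoters (42.1%) and in 13.0% of all 32851 promoters of the same length. Any E-box, CANNTG, which includes CAGCTG, was present in 81.6% and 66.2%. The CArG box, the site of serum response factor, was present in 7.89% and 1.47%. The core of the site of MEF2 factors, CTA and TAG with any 4 bases between, was present in 3 of 38 (7.89%, in Myf5, Myoz2 and Ttn) and in 3.20% of all promoters. The 2 progenitor promoters with an entry, Pax7 and Myf5, held no E-box of either form. A match is a description of the letters and not evidence of binding. The 5 promoters below are shown because they hold these motifs in actin, acetylcholine receptor and myosin light chain genes described further on: capitals mark CAGCTG and the CArG box, and each is written 5′ to 3′ on the strand of its gene. They lie at chr8:123894776-123895025, minus strand (Acta1), chr2:114052876-114053125, minus strand (Actc1), chr2:73580339-73580588, minus strand (Chrna1), chr1:87205561-87205810, plus strand (Chrng) and chr7:127211358-127211607, plus strand (Mylpf).
Acta1: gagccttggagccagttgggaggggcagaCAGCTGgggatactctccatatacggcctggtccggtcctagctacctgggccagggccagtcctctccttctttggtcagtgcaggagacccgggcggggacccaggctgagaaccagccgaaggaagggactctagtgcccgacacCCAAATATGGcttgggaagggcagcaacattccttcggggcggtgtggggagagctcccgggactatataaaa
Actc1: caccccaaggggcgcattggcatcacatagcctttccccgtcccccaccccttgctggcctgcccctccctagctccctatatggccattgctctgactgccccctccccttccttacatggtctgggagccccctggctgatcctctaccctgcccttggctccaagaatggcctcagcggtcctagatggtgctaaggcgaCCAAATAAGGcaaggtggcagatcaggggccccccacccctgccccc
Chrna1: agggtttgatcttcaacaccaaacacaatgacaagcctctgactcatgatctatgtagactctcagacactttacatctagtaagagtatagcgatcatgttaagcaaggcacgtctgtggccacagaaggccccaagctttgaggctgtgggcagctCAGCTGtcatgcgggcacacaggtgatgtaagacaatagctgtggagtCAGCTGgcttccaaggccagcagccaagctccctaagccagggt
Chrng: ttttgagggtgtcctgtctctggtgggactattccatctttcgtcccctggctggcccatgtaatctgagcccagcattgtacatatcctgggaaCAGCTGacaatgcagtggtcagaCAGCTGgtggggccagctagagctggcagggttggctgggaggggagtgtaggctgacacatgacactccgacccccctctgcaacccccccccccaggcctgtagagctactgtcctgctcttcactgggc
Mylpf: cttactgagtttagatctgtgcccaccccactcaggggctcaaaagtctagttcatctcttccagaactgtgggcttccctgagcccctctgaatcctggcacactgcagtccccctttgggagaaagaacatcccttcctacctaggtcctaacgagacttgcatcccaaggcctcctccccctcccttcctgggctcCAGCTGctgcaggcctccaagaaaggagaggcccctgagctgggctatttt
The E-box of Acta1, the skeletal actin gene, began 221 bases before the start and its CArG box 73 bases before it. In Actc1, the cardiac actin that embryonic limb muscle also uses, the CArG box began 47 bases before the start, and no CAGCTG was found. Chrna1 and Chrng, subunits of the acetylcholine receptor, each held 2 copies of CAGCTG, at 92 and 44 bases and at 155 and 132 bases before the start. In Mylpf, the fast regulatory myosin light chain, the E-box began 51 bases before the start.

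The arrays carried a strong muscle signal. In wild type 39 of the 40 tested members had a mean above the reference, with a median log2 ratio of 2.28, against 0.10 over all tested genes. Myh3, the embryonic myosin heavy chain, was 34.8-fold above the reference and Myh7, the slow heavy chain, 25.2-fold. Actn2, the Z-disc actinin, was 17.5-fold above it and Myog 13.9-fold. Only Pax3 lay below the reference, at a log2 ratio of -1.29. These ratios set each gene against the same gene in the reference, so they give no order of abundance between genes, and with all samples in Cy5 a dye effect is part of them. Myf5 was not tested, because its probe failed the background criterion on each of the 22 arrays. Pax3 was well above background on 13 arrays (6 wild-type and 7 knockout) and Ckm on 21. The 6 tested marker genes of heart muscle were closer to the reference, with a median of 0.26 in wild type and 5 of 6 above it. Nppa (0.089), Nkx2-5 (-0.77) and Gata4 (0.057) were the lower ones of these 6, and the others, not named here, lay above that median. Markers of cartilage were high, with a median of 3.22 and Col2a1 at 3.76.

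**Figure D1:**
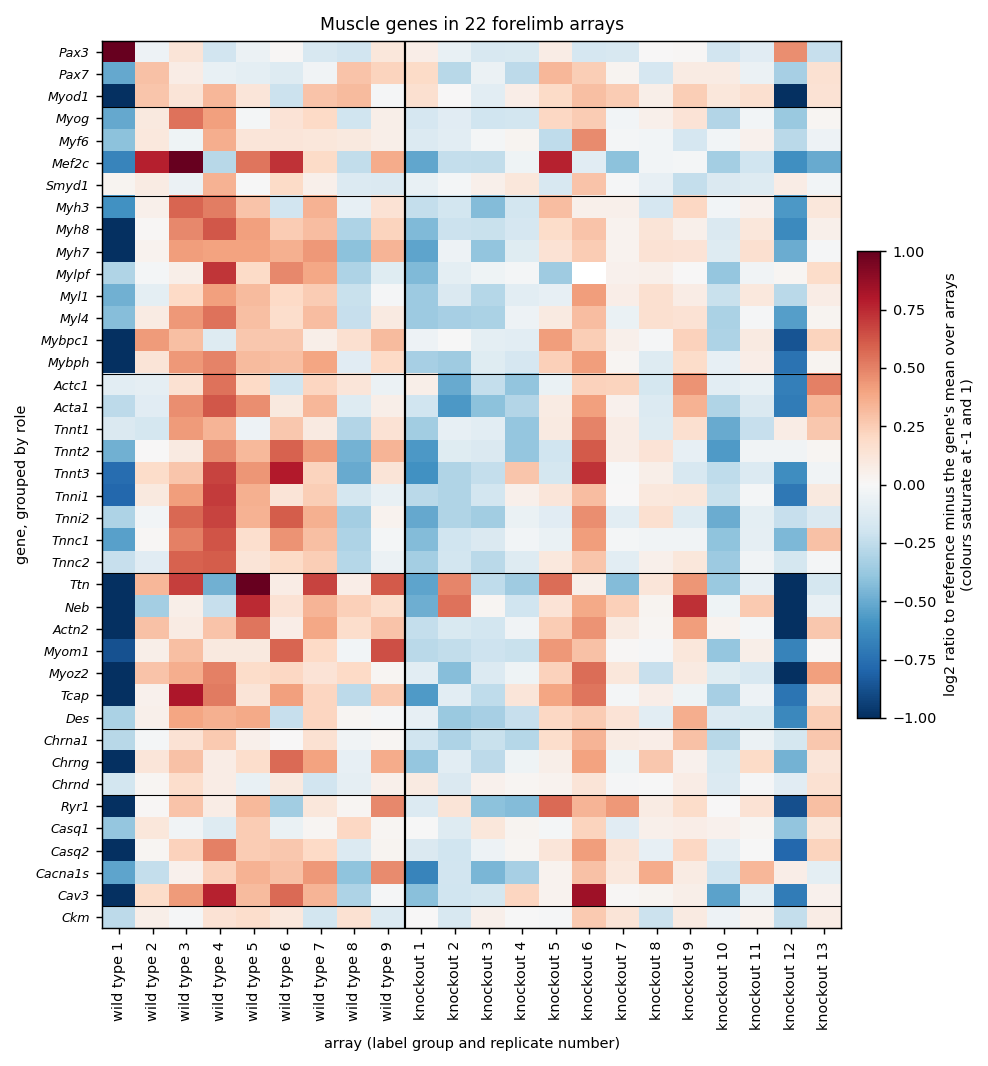
The log2 ratio to reference of each tested muscle gene (rows, grouped by role) in each of the 22 arrays (columns), minus the gene's mean over arrays, with wild type left of the black line. Wild type 1 and knockout 12 were low for most differentiation genes and high for Pax3; the white cell is a missing value of Mylpf in knockout 6.

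No muscle gene differed between knockout and wild type at the threshold. In the fit over all 22 arrays (limma, Benjamini-Hochberg adjustment over all genes, adjusted p under 0.05), 0 of 40 members were called, against 4 of 18627 (0.0215%) over all genes, and the smallest adjusted p of a member was 0.918. Most members were nevertheless slightly lower in knockout: 35 of 40 had a difference below 0, against 53.4% of all genes, with a median of -0.15 against -0.0072. At an unadjusted p under 0.05, 4 members were lower (Tnni2, Mef2c, Myl4 and Acta1) and 0 higher, where 3.95% of all genes were lower and 1.38% higher, 5.33% in either direction. For 36 of 40 members (90%) the 95% interval of the difference stayed within 1.5-fold in either direction, against 96.6% of all genes. The exceptions were Mef2c, Ttn, Tnni2 and Tnnt3. In no member were the groups free of overlap, which over all genes was seen in 1 (0.00537%), namely Chsy1. In samples of whole forelimb, fewer muscle cells and less of these RNAs per cell cannot be told apart.

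The size of this shift depended on which arrays were counted. Without wild type 1 and knockout 12, 39 of 40 members were lower (55.6% of all genes), the median was -0.22, and 22 were lower at an unadjusted p under 0.05 (4.45% of all genes), while 0 were called (0.00537% of all genes, smallest limma adjusted p = 0.786). Without knockout 12 alone 30 of 40 were lower (52.9% of all genes), the fewest of any single omission, and 0 were called (3 of 18627 genes). Medians by role are given below without wild type 1 and not without knockout 12 alone. Without wild type 1 alone 38 were lower (56.4% of all genes) and 0 called (0.0215% of all genes). In that fit 22 were lower at the unadjusted threshold (4.24% of all genes), without wild type 8 the number was 9 and without knockout 6 it was 8, where 9.22% and 4.99% of all genes passed in either direction. It was 2 without any 1 of wild type 3, 4, 5, 6 and 7 or knockout 1, 2, 3, 4, 10 and 12, where 3.74% to 6.71% of all genes passed. Without the array labelled knockout 1, 35 of 40 were lower (52.8% of all genes) with a median of -0.13, 0 were called (0.0161% of all genes), and the 2 members with an unadjusted p under 0.05 compare with 3.13% of all genes. A fit with array weights, which counts noisy arrays less, gave 39 lower (52.2% of all genes), 16 of them at the unadjusted threshold (5.31% of all genes), 0 called (0.0376% of all genes) and a smallest limma adjusted p of 0.126. The left-out pair was chosen after seeing the data.

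**Figure D2:**
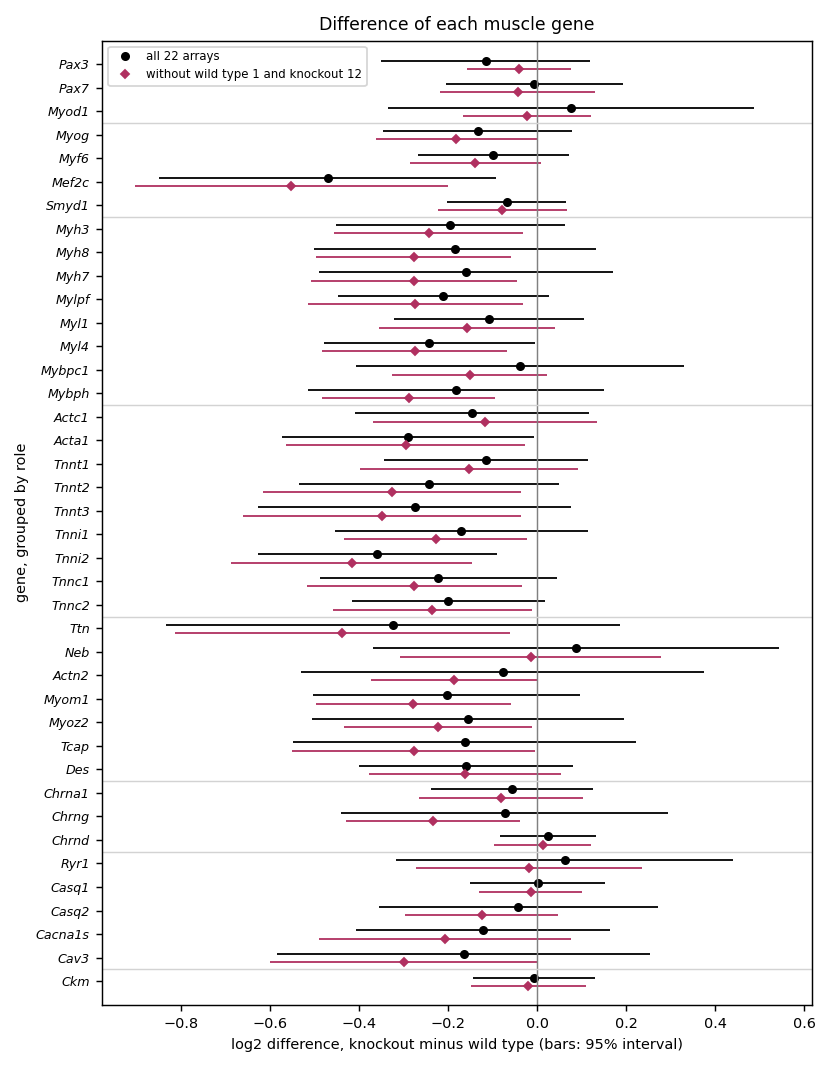
Difference of each tested muscle gene, knockout minus wild type in log2 units, with its 95% interval, over all 22 arrays (black) and without wild type 1 and knockout 12 (red). Values lay below 0 for 35 of 40 genes in the first and 39 of 40 in the second.

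The progenitor and commitment factors showed no common direction over all 22 arrays: of the 3 tested, 2 were lower and 1 higher, with a median difference of -0.0068. This changed with the setting. All 3 were lower without wild type 1 and knockout 12 (median -0.042) and with array weights (-0.067). All 3 were also lower in position 2 without knockout 1, where their median was -0.25 and that of the differentiation genes -0.25. In these settings 52.2% to 55.6% of all genes were lower. Pax3, the factor of migrating progenitors, was at -1.29 ± 0.37 (SD, n = 9) in wild type (lowest -1.56, median -1.41, highest -0.35) and -1.41 ± 0.18 (SD, n = 13) in knockout (lowest -1.59, median -1.47, highest -0.89). The highest values were those of wild type 1 and knockout 12, and the other arrays of both groups covered the same range. Its difference was -0.12 (SE 0.11, limma adjusted p = 0.938), and 0.0012 without wild type 1. Its probe lies at chromosome 1, 77986048 to 77986107 (mm8, as the array design gives it).

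Pax7, which marks the later progenitors, was at 0.63 ± 0.25 (SD, n = 9) in wild type (lowest 0.12, median 0.59, highest 0.92) and 0.62 ± 0.21 (SD, n = 13) in knockout (lowest 0.30, median 0.65, highest 0.96). Wild type 1 and knockout 12 were the lowest of their groups, and the ranges overlapped almost fully. The difference was -0.0068 (SE 0.096, limma adjusted p = 0.995), with a 95% interval of -0.20 to 0.19 (probe at chromosome 4, 139010525 to 139010584, mm8). Myod1, which commits cells to the muscle fate, was at 2.98 ± 0.63 (SD, n = 9) in wild type (lowest 1.38, median 3.16, highest 3.36) and 3.06 ± 0.38 (SD, n = 13) in knockout (lowest 1.85, median 3.18, highest 3.33). Again the 2 lowest arrays were wild type 1 and knockout 12, and all others lay within a narrow band shared by both groups. The difference was 0.076 (SE 0.20, limma adjusted p = 0.979) over all arrays and -0.023 without both (probe at chromosome 7, 46246628 to 46246687, mm8).

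Among the 4 regulators of differentiation all had a difference below 0, with a median of -0.12. Mef2c, a MADS-box factor that works with the myogenic factors and is also made in vessels and in maturing cartilage, was at 1.53 ± 0.58 (SD, n = 9) in wild type (lowest 0.59, median 1.62, highest 2.34) and 1.06 ± 0.35 (SD, n = 13) in knockout (lowest 0.64, median 1.02, highest 2.02). In knockout 12 of 13 arrays lay below the wild-type median, but wild type 1 was the lowest of all arrays, wild type 4 and 8 lay among the knockout arrays, and knockout 5 lay among the high wild-type arrays. The difference was -0.47 (SE 0.18, 1.39-fold lower, unadjusted p = 0.017, limma adjusted p = 0.918). Its 95% interval ran from -0.85 to -0.092, and the difference was -0.55 without wild type 1 and knockout 12 (probe at chromosome 13, 84141092 to 84141151, mm8).

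Myog, the factor that starts terminal differentiation, was at 3.79 ± 0.31 (SD, n = 9) in wild type (lowest 3.20, median 3.81, highest 4.26) and 3.66 ± 0.19 (SD, n = 13) in knockout (lowest 3.34, median 3.69, highest 3.97). Wild type 3 and 4 exceeded every knockout array, while wild type 1 was the lowest of all. The difference was -0.13 (SE 0.10, limma adjusted p = 0.931), -0.21 without wild type 1 and -0.076 without wild type 3 (probe at chromosome 1, 136108708 to 136108767, mm8). Myf6, the late member of the myogenic family, was at 0.59 ± 0.21 (SD, n = 9) in wild type (lowest 0.12, median 0.64, highest 0.89) and 0.49 ± 0.18 (SD, n = 13) in knockout (lowest 0.26, median 0.51, highest 1.01). In knockout 12 of 13 arrays lay below the wild-type median, and knockout 6 was the highest array of both groups. The difference was -0.10 (SE 0.082, limma adjusted p = 0.935), -0.16 without wild type 1 and -0.062 without wild type 4 (probe at chromosome 10, 106897291 to 106897350, mm8). Smyd1, a methyltransferase needed for sarcomere assembly, differed by -0.069 (95% interval -0.20 to 0.065), and by 0.061 in position 2.

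**Figure D3:**
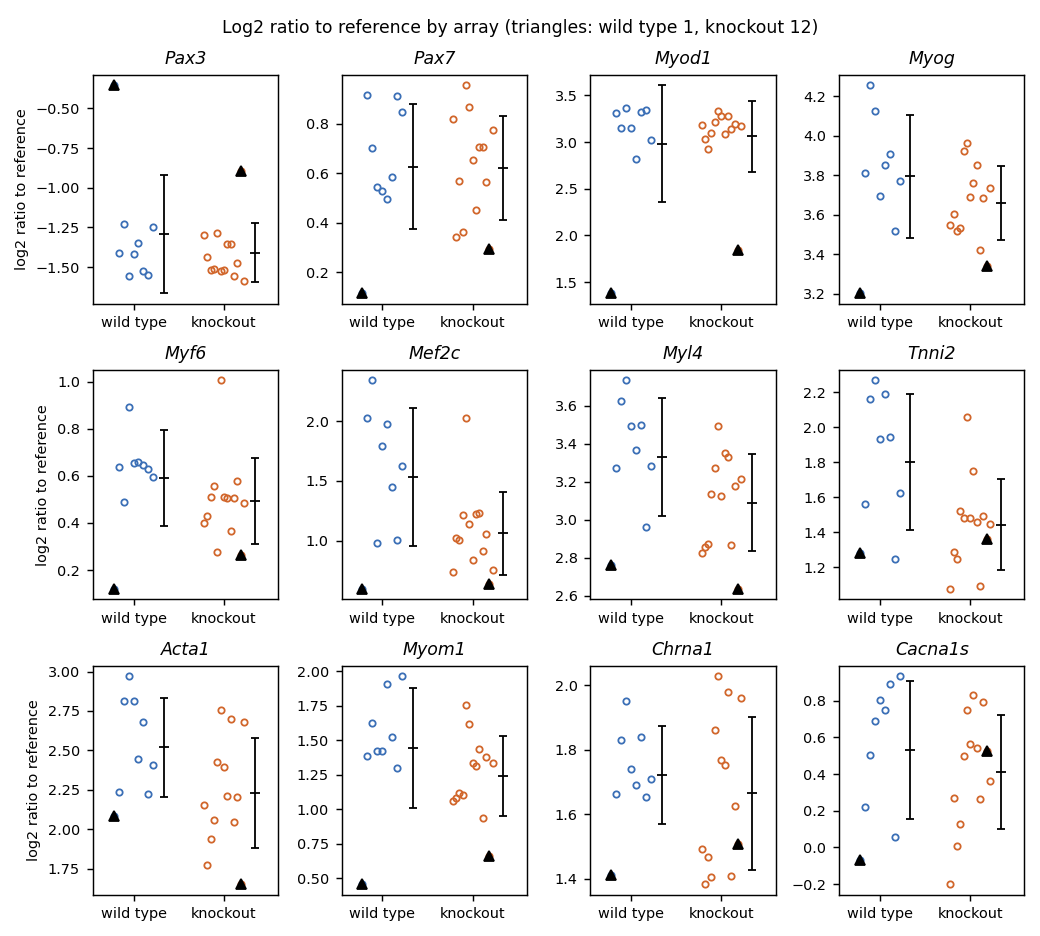
Log2 ratio to reference of 12 muscle genes, 1 point per array, in wild type (blue, n = 9) and knockout (orange, n = 13), with bars for the mean and SD; triangles are wild type 1 and knockout 12. The groups overlap in each panel, and the triangles are the highest of their groups for Pax3 and the lowest of their groups for Myod1, Myog, Mef2c and Acta1.

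All 8 genes of the thick filament had a difference below 0, with a median of -0.18, and only Mybpc1 turned in any of the 18 other settings. Myl4, the embryonic myosin light chain, had the smallest p of the group. It was at 3.33 ± 0.31 (SD, n = 9) in wild type (lowest 2.76, median 3.36, highest 3.73) and 3.09 ± 0.25 (SD, n = 13) in knockout (lowest 2.64, median 3.13, highest 3.49). In knockout 12 of 13 arrays were below the wild-type median, and knockout 6 was the exception. The difference was -0.24 (SE 0.11, unadjusted p = 0.045, limma adjusted p = 0.918; probe at chromosome 11, 104400198 to 104400568, mm8). The heavy chains were alike in size: embryonic Myh3 differed by -0.20 (95% interval -0.45 to 0.063), perinatal Myh8 by -0.18 (-0.50 to 0.13) and slow Myh7 by -0.16 (-0.49 to 0.17). For Myh7 each of the 13 knockout arrays was under the median of wild type, and yet wild type 1 was the lowest array of all. The light chains Mylpf and Myl1 differed by -0.21 (-0.45 to 0.026, from 12 knockout arrays because 1 value was missing) and -0.11 (-0.32 to 0.11). Mybpc1 and Mybph, myosin-binding proteins, differed by -0.038 (-0.41 to 0.33) and -0.18 (-0.52 to 0.15). Wild type 1 moved most of these values. Without it Mybpc1 was at -0.22, Mybph at -0.34, Myh8 at -0.33, Myh7 at -0.31 and Myl1 at -0.18. The median of the group was then -0.30, with 6 of 8 lower at an unadjusted p under 0.05 (4.24% of all genes). Single omissions also brought values nearer to 0. Mylpf was at -0.14, Myl1 at -0.065 and Myh8 at -0.12 without wild type 4.

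The thin filament had a median of -0.22, and all 9 of its genes were below 0. Tnni2, the fast troponin I, had the smallest p of all members. It was at 1.80 ± 0.39 (SD, n = 9) in wild type (lowest 1.25, median 1.93, highest 2.27) and 1.44 ± 0.26 (SD, n = 13) in knockout (lowest 1.08, median 1.46, highest 2.06). In knockout 12 of 13 arrays lay below the wild-type median, with knockout 6 above it, while wild type 1, 2, 8 and 9 lay among the knockout arrays. The difference was -0.36 (SE 0.13, 1.28-fold lower, unadjusted p = 0.011, limma adjusted p = 0.918; probe at chromosome 7, 142253726 to 142253785, mm8). Acta1, the actin of the mature fibre, was at 2.52 ± 0.31 (SD, n = 9) in wild type (lowest 2.09, median 2.45, highest 2.97) and 2.23 ± 0.35 (SD, n = 13) in knockout (lowest 1.65, median 2.20, highest 2.76). The highest array was wild type 4 and the lowest knockout 12, with wide overlap between. The difference was -0.29 (SE 0.14, unadjusted p = 0.045, limma adjusted p = 0.918; probe at chromosome 8, 126778387 to 126778446, mm8).

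Each of the 9 thin-filament genes also lay below 0 in all of the 18 other settings tried. Those not yet described were closer to 0. Actc1 differed by -0.15 (95% interval -0.41 to 0.12). Among the troponin T genes, which tie troponin to tropomyosin, slow Tnnt1 differed by -0.12 (-0.34 to 0.11), cardiac and embryonic Tnnt2 by -0.24 (-0.54 to 0.049) and fast Tnnt3 by -0.28 (-0.63 to 0.076). Slow troponin I, Tnni1, differed by -0.17 (-0.46 to 0.11). The calcium sensors of slow and fast fibres, Tnnc1 and Tnnc2, differed by -0.22 (-0.49 to 0.044) and -0.20 (-0.42 to 0.016). The median of the 9 genes was -0.31 without wild type 1, with 7 lower at an unadjusted p under 0.05 (4.24% of all genes), and Tnni1 was at -0.28. Without wild type 4 Actc1 was at -0.089 and Tnni1 at -0.096, and without wild type 3 Tnnt1 was at -0.071. Genes of the slow and of the fast fibre were thus both below 0, 4 of 4 with a median of -0.17 (Myh7, Tnnt1, Tnni1 and Tnnc1) and 5 of 5 with a median of -0.21 (Mylpf, Myl1, Tnnt3, Tnni2 and Tnnc2). The difference between fibre types was not tested.

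Of the 7 genes of the sarcomere scaffold, 6 were below 0, with a median of -0.16. Myom1, which cross-links myosin at the M-band, had the smallest p of this group. It was at 1.45 ± 0.44 (SD, n = 9) in wild type (lowest 0.46, median 1.43, highest 1.97) and 1.24 ± 0.29 (SD, n = 13) in knockout (lowest 0.66, median 1.31, highest 1.76). Wild type 1 and knockout 12 were the lowest arrays, and wild type 6 and 9 exceeded every knockout array. Its difference was -0.20 (SE 0.15, limma adjusted p = 0.931; probe at chromosome 17, 71031356 to 71031415, mm8). Ttn, the giant molecular spring titin, differed by -0.32 (95% interval -0.83 to 0.19) at its brightest probe. The other 4 tested titin probes gave -0.22, -0.12, -0.059 and -0.025. Neb, the thin-filament ruler nebulin, differed by 0.088 (-0.37 to 0.54) at 1 probe and -0.11 at another. Actn2 differed by -0.078 (-0.53 to 0.38), Myoz2 of the Z-disc by -0.16 (-0.51 to 0.19), the titin cap Tcap by -0.16 (-0.55 to 0.22) and the intermediate filament gene Des by -0.16 (-0.40 to 0.081). Wild type 1, the lowest wild-type array in each of the 7 genes, moved these values too. Without it Ttn was at -0.53, Tcap at -0.33, Myom1 at -0.33, Myoz2 at -0.30, Actn2 at -0.29 and Neb at -0.11. All 7 genes were then lower with a median of -0.30, 4 of them at an unadjusted p under 0.05 (4.24% of all genes). Without knockout 12 Actn2 was at 0.029 and Myoz2 at -0.077, and without wild type 3 Tcap was at -0.074.

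Over all arrays the receptor and calcium-handling genes had medians of -0.056 and -0.042. Chrna1, the ligand-binding subunit of the acetylcholine receptor, was at 1.72 ± 0.15 (SD, n = 9) in wild type (lowest 1.41, median 1.71, highest 1.95) and 1.66 ± 0.24 (SD, n = 13) in knockout (lowest 1.38, median 1.63, highest 2.03). The knockout arrays reached beyond the wild-type range on both sides. The difference was -0.056 (SE 0.088, limma adjusted p = 0.972), and 0.080 at its second probe (probe at chromosome 2, 73366894 to 73366953, mm8). The fetal subunit Chrng differed by -0.073 (95% interval -0.44 to 0.29) at its brightest probe and by 0.059 at its second. Chrnd differed by 0.024 (-0.085 to 0.13). Cacna1s, the voltage sensor of excitation-contraction coupling, was at 0.53 ± 0.37 (SD, n = 9) in wild type (lowest -0.070, median 0.69, highest 0.93) and 0.41 ± 0.31 (SD, n = 13) in knockout (lowest -0.20, median 0.50, highest 0.83). The array labelled knockout 1 was the lowest, followed by wild type 1. Its difference was -0.12 (SE 0.14, limma adjusted p = 0.953; probe at chromosome 1, 137935854 to 137935913, mm8).

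Ryr1, the calcium release channel, differed by 0.061 (95% interval -0.32 to 0.44) at its brightest probe and by 0.052 and -0.11 at the others. The calcium-binding proteins of the sarcoplasmic reticulum, Casq1 and Casq2, differed by 0.00088 (-0.15 to 0.15) and -0.042 (-0.36 to 0.27), and the muscle caveolin Cav3 by -0.17 (-0.58 to 0.25). These values depended on the arrays counted. When wild type 1 was left out, Cav3 was at -0.35, Chrng at -0.27, Cacna1s at -0.20 and Casq2 at -0.19, and the medians of both roles were -0.095 and -0.19. Within position 2 Cacna1s was at -0.60, Chrng at -0.48 and Ryr1 at -0.34, with 2 of 3 receptor genes and 1 of 5 calcium-handling genes lower at an unadjusted p under 0.05 (1.58% of all genes). Ckm, the muscle creatine kinase of the energy supply, was at 0.30 ± 0.16 (SD, n = 9) in wild type (lowest 0.035, median 0.36, highest 0.47) and 0.29 ± 0.14 (SD, n = 13) in knockout (lowest 0.056, median 0.30, highest 0.56). Its ranges overlapped almost fully, and the difference was -0.0068 (SE 0.066, limma adjusted p = 0.993; probe at chromosome 7, 18575395 to 18578002, mm8). By role, the medians thus ran from -0.22 for the thin filament and -0.18 for the thick filament to -0.056 for the receptor, -0.042 for calcium handling and -0.0068 both for Ckm and for the progenitor factors. The order of the largest changed with the setting. With array weights the thick filament was at -0.25 and the thin filament at -0.23, and in position 2 the thick filament and the scaffold were both at -0.38 and the thin filament at -0.32. Differences between roles were not tested.

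A wider list of 87 further muscle genes showed the same absence of calls. Of the 80 tested, 0 were called (0.0215% of all genes), 54 were lower and 26 higher (53.4% of all genes were lower), with a median of -0.034. At an unadjusted p under 0.05, 7 were lower and 1 higher, where 3.95% of all genes were lower and 1.38% higher. A total of 68 of 80 were lower without wild type 1, with a median of -0.11, 18 of them at the unadjusted threshold (4.24% of all genes). Without knockout 12 as well, 63 were lower with a median of -0.087, 12 of them at that threshold (4.45%). In position 2 these values were 71, -0.17 and 11 (1.58%). Itga7, the laminin receptor of myoblasts and fibres, had the smallest p among those lower, with a difference of -0.27 (SE 0.093, unadjusted p = 0.0084, limma adjusted p = 0.909). The 26 tested sarcomere genes of this list were mostly lower, 23 of 26 with a median of -0.12. Of the 13 tested genes of migration and early specification 5 were lower, with a median of 0.0089. Genes of fusion (median -0.024 of 5), of the synapse (-0.018 of 7), of calcium and membrane (-0.034 of 14) and of energy and turnover (-0.057 of 15) lay closer to 0.

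Other cell types of the limb were measured in the same fit. Cartilage markers were lower by a similar amount, 9 of 10 with a median of -0.16, and -0.28 with 10 of 10 lower without wild type 1 and knockout 12. Heart markers had a median of -0.094 (6 of 6 tested were lower), surface ectoderm -0.14 (6 of 7), endothelium -0.030 (6 of 7), tendon -0.022 (4 of 7), smooth muscle and pericyte -0.020 (5 of 8), erythroid cells 0.037 (3 of 7) and Schwann and neural crest cells 0.081 (2 of 8). None of these markers was called, in any of the 8 lists (0.0215% of all genes were called). The smallest limma adjusted p was 0.878, and at an unadjusted p under 0.05, 2 were lower and 3 higher (3.95% and 1.38% of all genes). Wild type 1 moved these medians too. Without it cartilage was at -0.31 (10 of 10 lower), endothelium at -0.21 (7 of 7), surface ectoderm at -0.21 (7 of 7), heart at -0.12 (6 of 6), tendon at -0.10 (6 of 7) and smooth muscle and pericyte at -0.084 (6 of 8). Schwann and neural crest cells were then at 0.0021 and erythroid cells at 0.00037. Without knockout 12 as well, endothelium was at -0.13, tendon at -0.052 and smooth muscle and pericyte at -0.037. The part of these cell types in the muscle values was not tested.

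The level of the muscle program in each array was summarised as the median deviation of its genes from their means over arrays. For the 37 differentiation genes it ran from -0.54 (wild type 1) to 0.41 (wild type 4) in wild type, with a median of 0.20, and from -0.57 (knockout 12) to 0.32 (knockout 6) in knockout, with a median of -0.022. Without wild type 1 and knockout 12 the ranges were -0.14 to 0.41 and -0.33 to 0.32. Knockout 6 thus stood with the high wild-type arrays and wild type 8 with the low knockout arrays. The progenitor factors had group medians of -0.038 in wild type and 0.029 in knockout. In wild type 1 and knockout 12 other lists were low too, with cartilage at -1.15 and -0.61 and endothelium at -1.41 and -0.93.

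**Figure D4:**
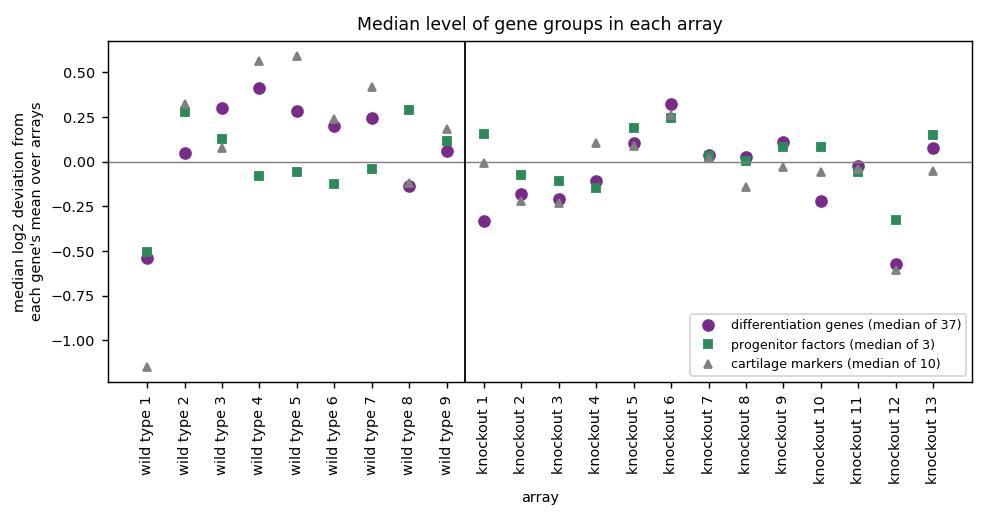
Median log2 deviation of 37 differentiation genes, 3 progenitor factors and 10 cartilage markers from each gene's mean over arrays, for each of the 22 arrays, with wild type left of the line. Wild type 1 and knockout 12 are low for all 3 lists, and the differentiation genes reach 0.41 in wild type 4 and 0.32 in knockout 6.

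The slides did not show 1 direction. Within slides 1 to 6 the median difference of the 37 differentiation genes was 0.042, 0.088, -0.36, -0.44, -0.36 and -0.24. Wild type 1 lay on slide 1 and knockout 12 on slide 3. Without them the median of all members was -0.43 on slide 1 (37 of 40 lower) and 0.13 on slide 3 (10 of 39 lower, with only knockout 6 left in knockout), so that both slides turned. With slide as a block 36 of 40 members were lower (54.0% of all genes), and 0 were called (1 of 18627 genes). Among the 6 arrays of position 2 alone, 36 of 40 were lower with a median of -0.30 (57.8% of all genes were lower), 12 at an unadjusted p under 0.05 (1.58% of all genes), and 0 were called. Without the array labelled knockout 1 in that position the median was -0.25, with 37 of 40 lower. For Tnni2 the difference within position 2 was -0.40, for Acta1 -0.48 and for Mef2c -0.44. Within position 2 the groups lay on different slides, so slide and genotype cannot be told apart there. Elsewhere position and genotype cannot be told apart.

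The differentiation genes varied together from array to array. The correlations of this paragraph used each gene's deviations from the mean of its own group, so the difference between groups is not part of them. Over the 666 pairs of these 37 genes the median Pearson r across the 22 arrays was 0.64, and 71.2% of pairs were above 0.5. Over all pairs of tested genes the median was 0.006, with 9.38% above 0.5. Part of this came with the 2 arrays that stood apart: without them the median was 0.47 with 46.7% above 0.5, against 0.007 and 10.1% over all genes. Myh8, Myl4 and Myl1 then had the highest median r with the other differentiation genes (0.71, 0.70 and 0.70), while Casq1 (-0.031), Ttn (0.19) and Mef2c (0.20) were the lowest of the 37. For the progenitor factors this median r was nearer 0 once those arrays were left out. The median r of Pax3 with them was -0.58 over all arrays and 0.011 without both, that of Pax7 0.42 and 0.0079, and that of Myod1 0.67 and 0.15. The points of these correlations share their array, its loess curve and the reference.

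Correlations across the 22 arrays were also computed for 4 pairs, with two-sided permutation p-values from 100000 resamples adjusted over the 4. Here the log2 ratios were used as they are, with no group mean subtracted. Myog and Acta1 had r = 0.79 and rho = 0.83 (permutation p = 2e-05 and 1e-05, adjusted 8e-05 and 4e-05, where 1e-05 is the smallest that the permutations can give). Without wild type 1 and 3, the arrays farthest from the median of Myog, r was 0.82. It was 0.78 within wild type, 0.84 within knockout, and 0.75, 0.79 and 0.82 within positions 1, 2 and 3. Arrays with more Myog thus had more Acta1 in both genotypes. Myod1 and Myog had r = 0.62 and rho = 0.51 (permutation p = 0.0017 and 0.017, adjusted 0.0017 and 0.017), but without knockout 12 and wild type 1, the farthest in Myod1, r was 0.28 (permutation p = 0.24), so the relation rests on those samples. Within wild type r was 0.68, within knockout 0.65, and within positions 1 to 3 it was 0.83, 0.24 and 0.64, with both arrays included.

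Pax7 and Myod1 had r = 0.69 and rho = 0.61 (permutation p = 7e-05 and 0.003, adjusted 9.3e-05 and 0.004). Without knockout 5 and wild type 1 r was 0.56 (adjusted permutation p = 0.0034), and without wild type 1 and knockout 12 it was 0.46. Within wild type r was 0.78, within knockout 0.61, and within positions 1 to 3 it was 0.85, 0.42 and 0.76. Acta1 also varied with Col2a1, the main collagen of cartilage, with r = 0.73 and rho = 0.66 (permutation p = 4e-05 and 0.0011, adjusted 8e-05 and 0.0022). Without knockout 12 and wild type 4 r was 0.59 (adjusted permutation p = 0.0089). It was 0.83 within wild type, 0.67 within knockout, and 0.82, 0.96 and 0.38 within positions 1, 2 and 3. Acta1 and Col2a1 thus varied together across forelimbs of both genotypes, with the lowest r in position 3.

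**Figure D5:**
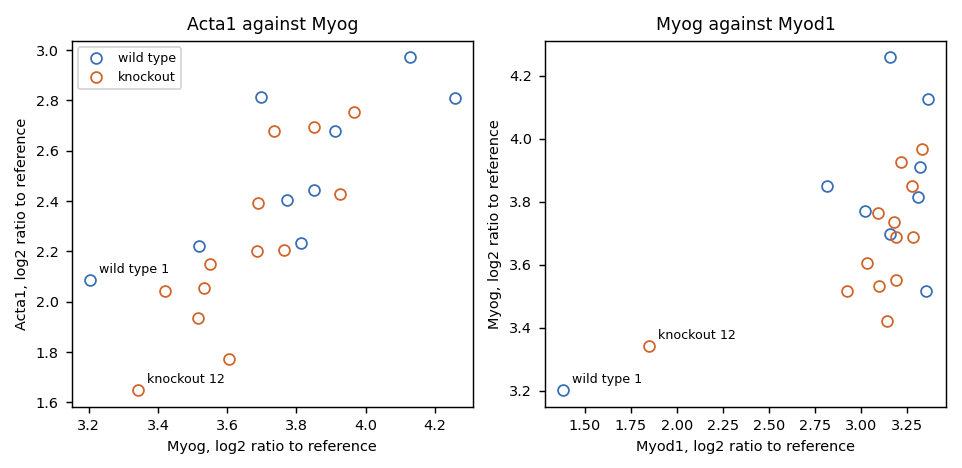
Log2 ratio to reference of Acta1 against Myog (left) and of Myog against Myod1 (right), 1 point per array, wild type in blue (n = 9) and knockout in orange (n = 13). The left relation holds across the range (r = 0.79), while the right one (r = 0.62) rests on wild type 1 and knockout 12.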

How the data were processed

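Gene expression was measured on 2-colour Agilent arrays in 9 wild-type and 13 knockout forelimb samples, grouped and numbered from the sample titles. The file headers name Feature Extraction 9.5.3.1 as the scanner software, and the submitters' processing notes give Agilent Feature Extraction 9.5. In the deposited scanner files spot and background brightness are raw intensities, and 0 or 1 marks outliers, saturation and signal well above background. The deposited log ratio is the log10 of processed Cy5 over Cy3, and the deposited value table held identical log10 values.

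From these, mean intensities were corrected with normexp (offset 50), normalised by loess within each array and turned into a log2 ratio of Cy5 over Cy3, with control and outlier spots at weight 0 and then removed. Spots of a probe were averaged. A probe entered the tests if 9 or more arrays had its Cy5 signal well above background, and a gene took its brightest passing probe. Where a group's values include a missing spot, the number of arrays is given. Names were updated through RefSeq tables of GRCm38.p6, and probe positions (mm8) are those in the scanner files. Whether a probe lies in a coding exon or a UTR was not analysed here.

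All 22 arrays entered 1 fit (lmFit and eBayes of limma 3.58.1, with R 4.3.3, no covariates), with Benjamini-Hochberg adjustment over 18627 genes and unnamed probes and a threshold of 0.05. The script was tested on simulated data. Values by array are given for Pax3, Pax7, Myod1, Myog, Myf6, Mef2c and the member with the smallest p of each role, and also for Acta1, which was used in correlations. Of the further muscle genes, the one with the smallest p among those lower is named, and the one among those higher is not reported here. Of the other cell type lists a few markers are named to place the tissue. The members and all lists were chosen with earlier results of these data known. The number of arrays limits the precision. Alternatives covered background correction, normalisation, filters, probe choice, slide, position, replicate block, array weights and leaving out arrays.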

Additional observations from a re-analysis of the deposited data

Results flagged for a closer look

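In 12 of the 40 tested muscle genes, wild type 1 was separated from the other 8 of the 9 wild-type arrays by more than Dixon's critical value of 0.493 of the group's range. Chance alone marks about 1 in 20 such groups, or 2 of 40. Knockout was not tested in this way, having more than 10 arrays. In Pax3 wild type 1 was the highest array, with a log2 ratio of -0.35. In the other 11 of these 12 genes it was the lowest, and it was also the lowest wild-type array in members that did not pass this value, such as Myog and Ttn. Among the 11, its log2 ratio was 1.38 for Myod1, 0.60 for Mybpc1 and 2.47 for Mybph. It was 0.80 for Neb, 2.39 for Actn2, 0.46 for Myom1 and 1.08 for Myoz2, which belong to the sarcomere scaffold. It was 1.61 for Chrng, 0.72 for Ryr1, 1.56 for Casq2 and 2.02 for Cav3. On the same array the endothelial markers were at -1.41 and the cartilage markers at -1.15 relative to their means, and the slope of its ratios on those of the other arrays was 0.686. The part of that slope in the muscle values was not tested.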

How the results depend on the processing

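In all of the 18 other settings and in each omission of 1 array, 0 members and 0 further muscle genes were called by limma. The median difference of the differentiation genes stayed below 0, from -0.33 to -0.11 over the settings and from -0.27 (without wild type 1) to -0.10 (without wild type 4) over single omissions. That of the progenitor factors ran from -0.25 to 0.039 and from -0.071 to 0.029. The number of members lower in knockout was 30 to 39 of 40 over the settings that tested 40. Aquantile leaves ratios as they are by construction. Median centring put the median of all genes at 0.24, and its differences are given relative to that. Its p-values and calls were not shifted and test each gene against 0, where 38.7% of all genes had an unadjusted p under 0.05. The absence of calls in that setting therefore cannot speak to the shift of the members.

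Changes of sign outside single omissions concerned members with a difference between -0.12 and 0.088 over all arrays, and none passed the threshold on either side. The smallest limma adjusted p was 0.141, for Chrna1 with median centring, where p-values were not shifted. With offset 16, Casq1 was at -0.0054. With no background subtraction, Neb was at -0.029, Chrnd at -0.017, Ryr1 at -0.017 and Casq1 at -0.0045. With the scanner software's log ratio, Pax3 was at 0.17, Myod1 at -0.066, Neb at -0.084, Chrnd at -0.14, Ryr1 at -0.046, Casq1 at -0.33 and Ckm at 0.079. With median centring, Chrna1 was at 0.023, Chrnd at -0.21 and Casq1 at -0.29. With the Cy5 channel alone, Pax3 was at 0.049, Neb at -0.029, Chrnd at -0.054, Ryr1 at -0.019 and Casq1 at -0.055. With the mean over a gene's probes, Neb was at -0.012 and Chrna1 at 0.012. With slide as a block, Casq1 was at -0.0020. With position as a block, and with position 2 alone, on which that contrast rests, Pax3 was at 0.023, Myod1 at -0.18, Smyd1 at 0.061, Neb at -0.23, Ryr1 at -0.34, Casq1 at -0.087 and Ckm at 0.020. With array weights, Myod1 was at -0.022, Neb at -0.056, Ryr1 at -0.042 and Casq1 at -0.075. Without wild type 1 and knockout 12, Myod1 was at -0.023, Neb at -0.015, Ryr1 at -0.019 and Casq1 at -0.015. In position 2 without knockout 1, Myod1 was at -0.25, Smyd1 at 0.092, Ryr1 at -0.34 and Casq1 at -0.089. The last 2 settings were chosen after seeing the data. The cause of these changes was not tested.

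Leaving out single arrays turned 37 values and left 865 with their sign, and no adjusted p was below 0.05. The lowest and highest values were -0.29 and 0.029 for Actn2, -0.048 and 0.034 for Casq1, -0.19 and 0.021 for Casq2, -0.040 and 0.014 for Ckm, -0.22 and 0.032 for Mybpc1, -0.12 and 0.18 for Myod1, -0.11 and 0.19 for Neb, -0.16 and 0.0012 for Pax3, -0.071 and 0.029 for Pax7 and -0.095 and 0.14 for Ryr1.

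Both groups share 9 replicate numbers, but arrays of 1 number did not consistently deviate together. The correlation of their deviations ran from -0.31 to 0.49, with 3 of 9 above 0.1, and 2 arrays correlated best with their own number. Arrays of 1 number lay on different slides, so these correlations cannot decide whether the numbers pair the samples. With the replicate number as a block 0 members were called and 30 of 40 were lower, with Pax7 at 0.0092, Mybpc1 at 0.051, Actn2 at 0.023, Casq2 at 0.022 and Ckm at 0.012.

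The number of arrays limits the precision. Pax3, well above background on 13 arrays, has little room below its measured values.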

Other observations

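Muscle genes differed widely in how much they varied between arrays of 1 group. The pooled standard deviation within groups was 0.61 log2 units for Ttn, more than for 99.2% of all tested genes, and 0.55 for Neb and 0.54 for Actn2. It was 0.50 for Cav3 and 0.49 for Myod1. At the other end, Chrnd varied by 0.11 (more than 9.93% of genes), Smyd1 by 0.15 and Ckm by 0.15. Over the 40 members the median was 0.34, against 0.19 for all tested genes. Much of this lay in wild type 1 and knockout 12. Without both, in a comparison chosen after seeing the data, the value was 0.43 for Ttn (more than 97.3% of genes), 0.33 for Neb and 0.34 for Cav3. It was 0.20 for Actn2 and 0.15 for Myod1 (more than 64.2% and 36.3% of genes), and 0.40 for Mef2c (96.4%). The median was then 0.24 over the 40 members and 0.17 over all genes.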
